A study of Homo sapiens with 8 samples.

Results

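Zinc handling was examined in SK-N-MC, a long-established line of Ewing sarcoma cells, through 9 genes picked by symbol from a table of 60332: the metallothioneins MT1E, MT1F, MT1G, MT1M, MT1X, MT2A and MT3, the transcription factor MTF1 and the zinc exporter SLC30A1. RNA from 8 libraries was measured as FPKM, a level per length of transcript and per sequencing depth, in 4 groups of 2. All cells carried a lentiviral dCas9-KRAB, a Cas9 that cannot cut DNA fused to a repressor domain. Control cells received it as an empty vector and were kept in normoxia or in 1% oxygen. The eKD1 and eKD2 cells received it with guides that place it beside the GGAA repeats upstream of LOXHD1, a different guide for each, and all 4 eKD libraries analysed here came from 1% oxygen. Exposure lasted 16 h. Cells were pools selected with puromycin, and the labels do not say whether the libraries of a group came from separate cultures, although the study calls them biological duplicates. No eKD library from normoxia was analysed here, so any effect of the guides in normoxia is left aside.

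Metallothioneins are small, cysteine-rich proteins that bind zinc and copper and buffer the free metal in the cytosol. When zinc rises, the zinc finger protein MTF1 binds short metal response elements in promoters and raises the metallothionein genes and SLC30A1, whose product moves zinc out across the plasma membrane. Metallothionein genes are also known to respond to low oxygen, glucocorticoids and oxidative stress, and they are often silent in particular tumour lines.

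The 7 metallothionein genes lie close together on chromosome 16, and MTF1 and SLC30A1 on chromosome 1 (GRCh37 throughout). MT2A (ENSG00000125148.6_2) covers chr16:56642496-56643409 on the plus strand, and MT1X (ENSG00000187193.8_3) covers chr16:56716382-56718108 on the plus strand. MTF1 (ENSG00000188786.9_2) covers chr1:38275246-38325264, and SLC30A1 (ENSG00000170385.9_2) covers chr1:211744910-211752503, both on the minus strand. The RefSeq promoter table used here held MT1X, MT2A, MTF1 and SLC30A1, and not MT1E, MT1F, MT1G, MT1M or MT3. The 250 bases before the start of MT2A, MT1X and SLC30A1 are given here, because these are the metal-responsive genes that were detected and the letters MTF1 is known to read can be seen in them. Each was taken from RefSeq, matched the GRCh37 genome exactly at 1 place, and is written from 5′ to 3′ on the strand of the gene. Capitals mark the metal response element core, TGCACNC or TGCGCNC on either strand.
MT2A, chr16:56642246-56642495, plus strand: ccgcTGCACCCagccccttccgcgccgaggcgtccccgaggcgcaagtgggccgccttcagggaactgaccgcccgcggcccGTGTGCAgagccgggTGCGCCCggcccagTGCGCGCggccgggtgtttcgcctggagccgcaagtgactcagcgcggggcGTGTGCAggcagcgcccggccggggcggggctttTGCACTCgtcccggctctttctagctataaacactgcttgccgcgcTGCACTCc
MT1X, chr16:56716132-56716381, plus strand: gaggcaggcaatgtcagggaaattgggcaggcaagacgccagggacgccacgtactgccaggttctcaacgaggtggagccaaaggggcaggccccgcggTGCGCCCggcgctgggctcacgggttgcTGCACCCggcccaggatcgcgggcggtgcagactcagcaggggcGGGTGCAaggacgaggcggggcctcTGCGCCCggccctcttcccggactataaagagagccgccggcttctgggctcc
SLC30A1, chr1:211752504-211752753, minus strand: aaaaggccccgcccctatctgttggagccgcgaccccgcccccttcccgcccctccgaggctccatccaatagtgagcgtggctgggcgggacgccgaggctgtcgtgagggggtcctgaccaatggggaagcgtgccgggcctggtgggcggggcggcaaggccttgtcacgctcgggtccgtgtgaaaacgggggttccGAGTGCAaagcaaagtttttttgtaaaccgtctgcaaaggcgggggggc

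The MT2A window held 7 such cores and the MT1X window 4, whereas SLC30A1 held 1 and MTF1 none. Of 35116 promoter windows of this length in the table, 0.0313% held at least 7 cores, 0.37% at least 4 and 24.8% at least 1. The hypoxia response element core, ACGTG or GCGTG on either strand, occurred 1 time in MT2A and in MT1X, 2 times in MTF1 and 3 times in SLC30A1. At least 1 such core stood in 43.2% of all windows, at least 2 in 19.4% and at least 3 in 7.76%. In MT2A the hypoxia core from -90 to -86, counted from the start, shared bases with the metal core from -88 to -82. These matches describe the letters of the windows, and no binding was measured.

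**Figure D1:**
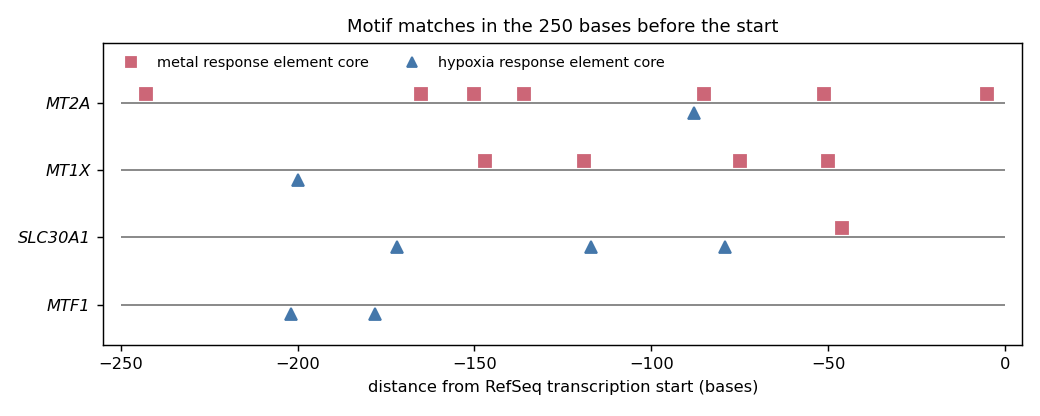
Positions of the 2 motif cores in the 250 bases before the RefSeq start of MT2A, MT1X, SLC30A1 and MTF1, with distance from the start in bases on the horizontal axis and 1 gene per line. Squares are metal response element cores, 7 in MT2A, 4 in MT1X and 1 in SLC30A1, and triangles are hypoxia response element cores.

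The metallothionein and SLC30A1 transcripts were scarce in these libraries. MT1E, MT1G, MT1M and MT3, the last of which is best known from brain, were listed at 0 FPKM in all 8 libraries, and MT1F was above 0 in 1 library alone, at 0.407 FPKM in eKD1 replicate 1. MT2A, the main metallothionein of most human tissues, averaged 3.60 FPKM over the 8 libraries, MT1X 3.56, MTF1 5.72 and SLC30A1 2.09. The median gene tested averaged 13.6 FPKM, and 25.7% of tested genes lay below MT2A, 25.6% below MT1X, 32.6% below MTF1 and 18.2% below SLC30A1. Over the wider family, 19 genes and pseudogenes were in the table and 15 of them were listed at 0 everywhere. The only other family row above 0 was the pseudogene MT1XP1, at 4.40 FPKM in control hypoxia replicate 2.

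A zero here has limited reach, because these transcripts are short. In control hypoxia replicate 1, the deepest library, 1 read on the 406-nt transcript of MT3 would have been worth about 0.407 FPKM, judged from 121 genes of like length. For MT1E the same estimate ran from 0.151 to 0.642 FPKM and for MT1G from 0.195 to 0.815 FPKM, depending on which annotated transcript is assumed. Genes a few reads below detection therefore cannot be told from silent ones. The 4 members MT2A, MT1X, MTF1 and SLC30A1 passed the filter (1 FPKM or more in 2 or more libraries), and the other 5 were not tested.

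Sequence that the family shares touches MT1X. Of the 330 windows of 75 bases, the read length, in its main transcript, 119 or 36.1% were identical in ENSG00000259827, MT1G or MT1XP1. The long non-coding gene ENSG00000259827 also covers the whole of MT1X on the same strand. MT1G shared 6.55% of its windows and MT1E 0.794%, while MT1F, MT1M, MT2A and MT3 shared none. The MT1X values therefore depend on how reads were divided between genes. For MT2A only its 401-nt transcript was searched, and for exact matches alone. MTF1 was not searched for shared windows. It overlaps the protein-coding AL929472.1 on the same strand over 1655 nt and a processed pseudogene on the opposite strand over 691 nt.

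The targeted gene LOXHD1 stood at 156 and 169 FPKM in control normoxia, 93.0 and 91.1 in control hypoxia, 17.3 and 15.0 in eKD1 and 11.7 and 11.8 in eKD2. CA9, a carbonic anhydrase induced by low oxygen, was listed at 0 in both normoxic libraries and ranged from 56.9 to 82.8 FPKM in the 6 hypoxic ones. All 7 Ewing sarcoma markers were above 1 FPKM in every library, although the levels of several differed between groups, as given further below. Of 10 markers of other cell types, 9 were in the table and 5 were above 1 FPKM in every library, among them DCN at 131 to 153 and PTPRC at 4.87 to 23.8, while CD3E was listed at 0. Their sum was 258 to 261 FPKM in control normoxia, 282 to 290 in control hypoxia, 295 to 313 in eKD1 and 297 to 307 in eKD2, and its part in the results below was not tested. Relative depth, read from the low values, ran from 55.7% in control normoxia replicate 2 to 100% in control hypoxia replicate 1.

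Low oxygen was compared with normoxia in control cells first, which asks how the zinc genes respond where LOXHD1 was not targeted. MT2A rose, and it was the only member called. It stood at 1.02 and 2.10 FPKM in normoxia and at 4.66 and 5.64 in hypoxia. The groups did not overlap, and in RNA from bulk cells more MT2A per cell and more cells with MT2A cannot be told apart. The means were 1.56 ± 0.759 and 5.15 ± 0.695 FPKM (SD, n = 2 each). In limma, fitted over all 15372 tested genes on log2(FPKM + 1) with Benjamini-Hochberg adjustment, the change was 1.29 ± 0.28 (SE, log2 scale), adjusted p = 0.0385. This scale understates changes of low genes, and the ratio of the mean FPKM values was 3.30. Among all tested genes 32.2% were called in this comparison and 16.2% were called higher, so 1 called member of 4 is no more than the background. Both hypoxic libraries lay above both normoxic ones in 35.9% of all tested genes.

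The MT2A values rest on very few reads. They were whole multiples of a step of 0.387 FPKM in control hypoxia replicate 1, to within 0.0191 of a step, which makes them 2 and 3 reads in normoxia and 12 and 14 in hypoxia if 1 step is 1 read. The exact Poisson 95% intervals were 0.242 to 7.22 and 0.619 to 8.77 reads in the normoxic libraries. In the hypoxic libraries they were 6.20 to 21.0 and 7.65 to 23.5 reads. Pooled by group and divided by relative depth, 26 reads against 5 gave a ratio of 3.49, with an exact (Clopper-Pearson) 95% interval of 1.32 to 11.7 that covers counting error only. The call was lost with a pseudocount of 0.1 (adjusted p = 0.0521) and with no filter on low values (adjusted p = 0.127). It was also lost with the replicate number added to the fit (adjusted p = 0.0502). Without any 1 of the 4 libraries the log2 change was 0.98 to 1.60, but 0 of all 15372 genes were then called, so these smaller fits could not test whether the call rests on 1 library.

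MT1X showed no such pattern. It stood at 0.881 and 6.30 FPKM in the normoxic libraries and at 2.01 and 5.31 in the hypoxic ones. The ranges overlapped, the duplicates of a group differed more than the groups did, and the change was 0.23 ± 0.82, adjusted p = 0.846. An SE of that size leaves the direction of MT1X undetermined.

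The regulator and the exporter lay lower in hypoxia without passing the test. MTF1 was at 8.20 and 6.21 FPKM in normoxia and at 4.75 and 5.41 in hypoxia, a change of -0.42 ± 0.18, adjusted p = 0.162. SLC30A1 was at 2.17 and 1.94 FPKM in normoxia and at 1.25 and 1.22 in hypoxia. Its change was -0.45 ± 0.16, adjusted p = 0.105. In both genes every hypoxic library was below every normoxic one, a pattern that 34.5% of all tested genes showed.

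**Figure D2:**
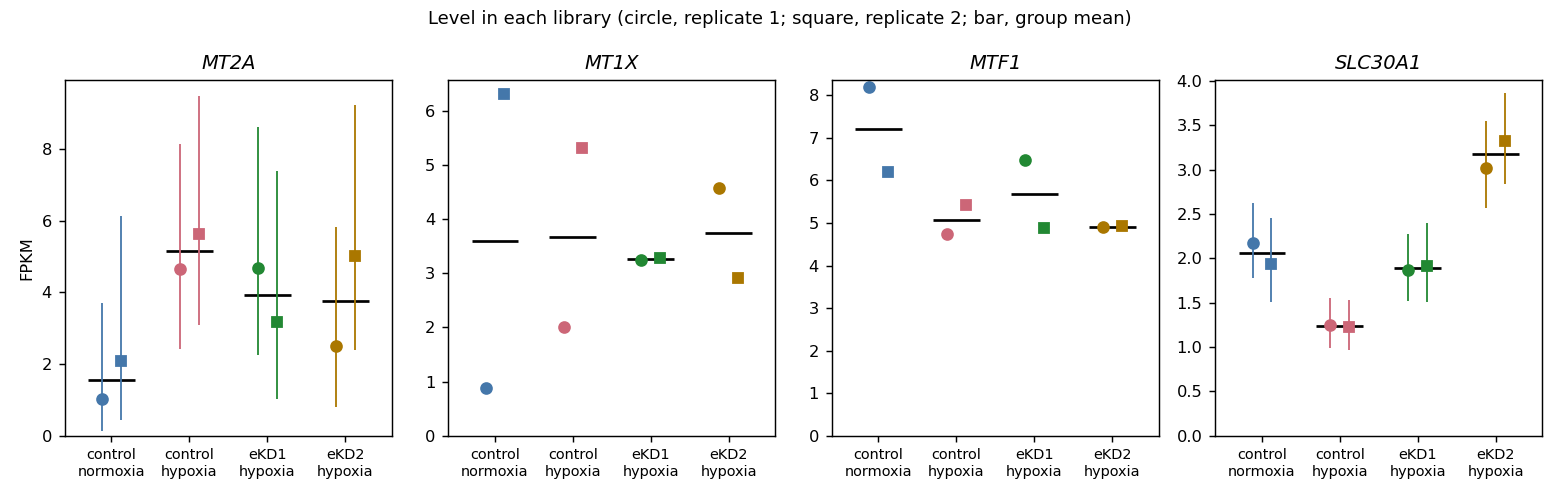
FPKM (vertical axis, from 0) of MT2A, MT1X, MTF1 and SLC30A1 in each library of the 4 groups, with circles for replicate 1, squares for replicate 2 and bars for group means of 2. Thin lines on MT2A and SLC30A1 are exact Poisson 95% intervals of the reads behind each value. MT2A is lowest in normoxia, SLC30A1 is lowest in control hypoxia and highest in eKD2, and the MT1X duplicates lie far apart in both control groups.

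Guide by guide, the eKD cells were then set against control cells in the same oxygen, which asks what changes when the LOXHD1 enhancer is repressed. These comparisons use the same control hypoxia libraries as the hypoxia comparison, so the changes are given side by side and not correlated. The exporter SLC30A1 was the member that moved. It stood at 1.25 and 1.22 FPKM in control hypoxia, at 1.87 and 1.92 in eKD1 and at 3.02 and 3.32 in eKD2. The values of the 3 groups did not overlap, eKD1 and eKD2 each lying above control hypoxia as did 27.6% and 35.8% of all tested genes. The SDs were 0.0205, 0.037 and 0.212 FPKM, but an SD of 2 libraries is imprecise. Exact Poisson 95% intervals of the reads ended at 1.55 and 1.53 FPKM in control hypoxia. In eKD1 they ran from 1.52 to 2.27 and from 1.51 to 2.40 FPKM, so these 2 groups overlapped within counting error. In eKD2 they began at 2.56 and 2.84 FPKM.

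In eKD2, SLC30A1 rose by 0.90 ± 0.14 on the log2 scale (limma, adjusted p = 0.0448), a ratio of mean FPKM of 2.57. It was the 1 member called of 4 tested, where 9.61% of all tested genes were called and 5.8% were called higher. In eKD1 the change was 0.37 ± 0.15, adjusted p = 0.262, a ratio of 1.53. The direct comparison of eKD2 with eKD1 gave 0.53 ± 0.15, adjusted p = 0.162, with both eKD2 libraries above both eKD1 libraries. A difference between the guides was thus not established by the test, and 31.9% of tested genes were likewise higher in both eKD2 libraries. Of the 7 Ewing sarcoma markers, limma called 1 higher and 5 lower in control hypoxia, where 32.2% of all tested genes were called. The largest changes were in LIPI (-2.17), NR0B1 (-0.87), STEAP1 (-0.79) and CD99 (0.38). In eKD2, 3 were called higher and 1 lower, namely NR0B1 (1.06), LIPI (0.81), CCND1 (0.31) and CD99 (-0.34). In eKD1 0 of the 7 were called. Among the 6 tested markers of other cell types, COL1A1 and COL3A1, collagen genes, were called higher in control hypoxia (0.63 and 0.37, adjusted p = 0.0219 and 0.0274) and neither was called in eKD2 (0.12 and 0.20, adjusted p = 0.45 and 0.0975). PTPRC, a leukocyte marker, was called lower in control hypoxia (5.13 FPKM on average, against 23.2 in normoxia) and higher in eKD2 (13.9 FPKM), with eKD1 at 9.81, and the part of these markers in the SLC30A1 result was not tested.

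SLC30A1 is better counted than MT2A, since its only transcript in the annotation used here has 5893 nt. Its values were whole multiples of a step of 0.0154 FPKM, again taken as 1 read, to within 0.000239 of a step. They came to 107 and 70 reads in control normoxia, 81 and 76 in control hypoxia, 100 and 76 in eKD1 and 152 and 166 in eKD2. The intervals of the eKD2 libraries (129 to 178 and 142 to 193 reads) lay above those of the deeper control hypoxia libraries (64.3 to 101 and 59.9 to 95.1). Per unit of depth the pooled ratio was 2.57 for eKD2 over control hypoxia, with an exact interval of 2.11 to 3.13, and 1.53 for eKD1, with an interval of 1.23 to 1.91. The ratio of control hypoxia to normoxia was 0.596, with an interval of 0.478 to 0.743. These intervals leave out the variation between libraries, and the eKD2 call was lost with no filter (adjusted p = 0.0978) and with no variance trend (adjusted p = 0.0555). It was also lost with the replicate number added to the fit (adjusted p = 0.113), where no gene of any kind was called. Without any 1 of the 4 libraries the log2 change was 0.85 to 0.95, but 0 of all 15372 genes were then called.

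Neither metallothionein was called in eKD cells. MT2A had 4.68 and 3.16 FPKM in the eKD1 libraries and 2.495 and 5.01 in those of eKD2, overlapping the 4.66 and 5.64 of control hypoxia. The changes were -0.33 ± 0.23 for eKD1, adjusted p = 0.46, and -0.42 ± 0.32 for eKD2, adjusted p = 0.43. These values correspond to 10 and 5 reads in eKD1 and 5 and 10 in eKD2. The pooled ratios to control hypoxia, 0.786 and 0.731, had exact intervals of 0.387 to 1.54 and 0.36 to 1.43, so that a fall beyond 2-fold or a moderate rise could both go unseen at this depth. MT1X had 3.24 and 3.29 FPKM in the eKD1 libraries and 4.57 and 2.91 in those of eKD2, with changes of -0.03 ± 0.41 and 0.10 ± 0.45, adjusted p = 0.976 and 0.905.

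MTF1 had 6.48 and 4.87 FPKM in the eKD1 libraries and 4.90 and 4.93 in those of eKD2. Its changes from control hypoxia were 0.13 ± 0.19, adjusted p = 0.733, and -0.04 ± 0.13, adjusted p = 0.875, and the groups overlapped in both comparisons. In eKD1, limma called none of the 4 members, none reached an unadjusted p of 0.05 either, and 0.0651% of all tested genes were called. Between the guides 0 of 4 members were called, where 0.403% of all tested genes were called. SLC30A1 alone had an unadjusted p under 0.05, a count with no share over all tested genes beside it. From eKD1 to eKD2, MT2A changed by -0.08 ± 0.36, MT1X by 0.13 ± 0.23 and MTF1 by -0.16 ± 0.18 (adjusted p = 0.914, 0.77 and 0.626), with overlapping groups in all 3 genes.

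**Figure D3:**
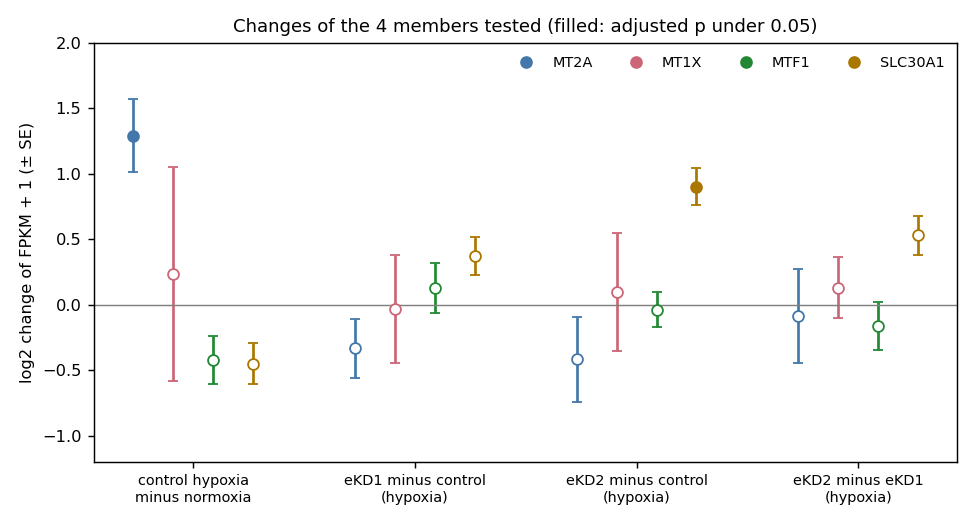
Log2 change of FPKM + 1 with its SE from limma (vertical axis) for MT2A, MT1X, MTF1 and SLC30A1 in 4 comparisons (horizontal axis), 2 libraries against 2. Filled points have an adjusted p under 0.05, which holds for MT2A in control hypoxia against normoxia (1.29) and SLC30A1 in eKD2 against control hypoxia (0.90).

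Set against normoxic control cells, eKD cells in low oxygen showed no called member. Here limma called 0 of 4 members for eKD1 and 0 of 4 for eKD2, while 10.8% and 19.3% of all tested genes were called. At an unadjusted p under 0.05 stood 1 member, MT2A, for eKD1 and none for eKD2. No share over all tested genes stands beside these unadjusted counts. MT2A was above both normoxic libraries in each eKD library, by 0.96 ± 0.32 for eKD1 (adjusted p = 0.136) and 0.87 ± 0.39 for eKD2 (adjusted p = 0.197). That order of libraries was shared by 31.9% of tested genes for eKD1 and 37.5% for eKD2. SLC30A1 differed by -0.08 ± 0.16 in eKD1, adjusted p = 0.767, and by 0.45 ± 0.16 in eKD2, adjusted p = 0.131. MT1X differed by 0.20 ± 0.73 and 0.33 ± 0.75 (adjusted p = 0.878 and 0.78), and MTF1 by -0.30 ± 0.22 and -0.46 ± 0.18 (adjusted p = 0.42 and 0.158), for eKD1 and eKD2. In the order of its group means, SLC30A1 thus went from control hypoxia (1.24 FPKM) through eKD1 (1.89) and control normoxia (2.06) to eKD2 (3.17), with no neighbouring pair past the test. The order for MT2A was control normoxia, eKD2, eKD1 and control hypoxia, at 1.56, 3.75, 3.92 and 5.15 FPKM, and its eKD groups overlapped each other and control hypoxia. MTF1 ran from eKD2 (4.91) through control hypoxia (5.08) and eKD1 (5.67) to control normoxia (7.20), and MT1X stayed between 3.26 and 3.74 FPKM in all group means.

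Adding the 7 metallothioneins together removes the division of reads among them, but not that with MT1XP1 or ENSG00000259827, which lie outside the sum. It was 1.91 and 8.40 FPKM in control normoxia, 6.665 and 10.95 in control hypoxia, 8.32 and 6.45 in eKD1 and 7.06 and 7.92 in eKD2. The normoxic duplicates lay far apart, with MT1X at 0.881 and 6.30 FPKM in them, and the range of that group overlapped those of the other groups. With all family genes in the table, control hypoxia replicate 2 came to 15.4 FPKM through MT1XP1, and the other libraries were the same.

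The other zinc transporters place SLC30A1 among its relatives. SLC30 proteins move zinc out of the cytosol, either out of the cell or into vesicles and organelles, and 7 of the 10 listed genes were tested, with SLC30A2, SLC30A8 and SLC30A10 listed at 0. SLC30A5, which loads zinc into the secretory pathway, was far more abundant than SLC30A1 on the FPKM scale, at 145 to 230 FPKM. In control hypoxia 3 of the 7 fell and 1 rose, where 32.2% of all tested genes were called. SLC30A9 fell by 0.56, SLC30A5 by 0.57 and SLC30A7, a Golgi zinc transporter, by 0.83 on the log2 scale (adjusted p = 0.0133, 0.015 and 0.0496), and SLC30A4, a vesicular transporter, rose by 0.61 (adjusted p = 0.0464). The median of the 7 was -0.45, which is the value of SLC30A1 itself, against 0.01 over all tested genes.

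In eKD2, 2 of the 7 rose, SLC30A1 and SLC30A9, and none fell, where 9.61% of all tested genes were called and 5.8% were called higher. SLC30A9, which is known as a mitochondrial zinc transporter, was at 46.3 and 46.8 FPKM in control normoxia, 30.9 and 31.6 in control hypoxia, 37.2 and 41.1 in eKD1 and 48.0 and 49.0 in eKD2. Its control hypoxia libraries were the lowest and its eKD1 libraries lay between those and the rest, the same layout of groups as in SLC30A1 except that eKD2 was close to normoxia. The rise in eKD2 was 0.62 ± 0.06, adjusted p = 0.0305. The median change of the 7 exporters was 0.33 in eKD2 and 0.10 in eKD1, against 0.05 and 0.00 over all tested genes. No exporter was called by limma in eKD1, where 1, SLC30A9, had an unadjusted p under 0.05.

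The SLC39 proteins carry zinc the other way, into the cytosol, and 11 of the 14 listed genes were tested. In control hypoxia limma called 0 of 11, where 32.2% of all tested genes were called, and 3 had an unadjusted p under 0.05. The median change of the 11 was -0.10, against 0.01 over all tested genes. In eKD2, SLC39A14, a broad metal importer, rose from 51.6 and 50.9 FPKM in control hypoxia to 64.9 and 65.0 (0.34 ± 0.05, adjusted p = 0.0476). SLC39A7, which releases zinc from the endoplasmic reticulum, fell from 100.1 and 101 FPKM to 73.0 and 67.0 (a change of -0.52 ± 0.07, adjusted p = 0.0358). The other 9 importers were not called in eKD2, where 9.61% of all tested genes were called. In eKD1 none of the 11 was called, where 0.0651% of all tested genes were, and 3 had an unadjusted p under 0.05.

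**Figure D4:**
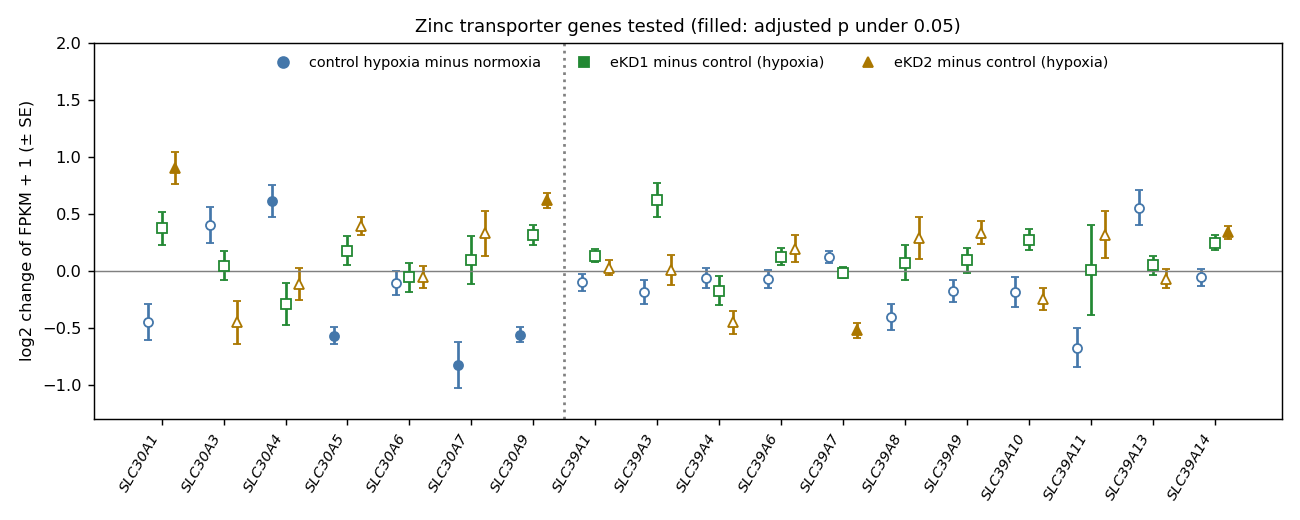
Log2 change of FPKM + 1 with its SE from limma (vertical axis) for the 7 exporters (SLC30) and 11 importers (SLC39) tested (horizontal axis, separated by the dotted line), in control hypoxia against normoxia, eKD1 against control hypoxia and eKD2 against control hypoxia. Filled symbols have an adjusted p under 0.05: 4 exporters and 0 importers in hypoxia, 2 exporters and 2 importers in eKD2, and none in eKD1.

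Other genes reported as MTF1 targets moved at far higher levels than the metallothioneins. Of the 9 symbols listed 7 were in the table and 6 were tested, and in control hypoxia 4 rose and none fell, where 16.2% of all tested genes were called higher. NDRG1, a stress gene that is also strongly hypoxia-induced, went from 17.2 and 14.2 to 51.1 and 39.6 FPKM, a rise of 1.47 (adjusted p = 0.0135). The selenoproteins SELENOW and SELENOH rose by 0.95 and 0.28 (adjusted p = 0.0108 and 0.023), and TXN, the redox protein thioredoxin, rose by 0.51 (adjusted p = 0.0109). The median of the 6 was 0.44. In eKD2, where 9.61% of all tested genes were called, SELENOW fell by 0.76 and TXN by 0.39 (adjusted p = 0.0308 and 0.0322), and the median was -0.41 against 0.05 over all genes. In eKD1 limma called none of the 6, with 2 at an unadjusted p under 0.05.

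A further list held 6 regulators: SP1, EP300, HIF1A, NFE2L2, MTF2 and KEAP1. Of these, 3 fell in control hypoxia and none rose, where 32.2% of all tested genes were called in either direction. The mRNA of HIF1A, the oxygen-regulated factor that can act together with MTF1, fell from 104 and 116 FPKM to 33.3 and 39.0 (a change of -1.58 ± 0.11, adjusted p = 0.00809). SP1, a general activator, fell by 0.37 and NFE2L2, the oxidative stress factor, by 0.28 (adjusted p = 0.0388 and 0.0476). In eKD2, where 9.61% of all tested genes were called, HIF1A rose by 0.73 and NFE2L2 by 0.92 (adjusted p = 0.0408 and 0.0285). NFE2L2 stood at 81.0 and 91.3 FPKM in eKD2, above all other libraries, which ranged from 42.4 to 56.0. In eKD1 limma called 0 of the 6, with 2 at an unadjusted p under 0.05.

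Copper shares the metallothioneins as a buffer, and all 10 copper genes listed were tested. In control hypoxia 3 of the 10 rose and none fell, a share close to the 32.2% of all tested genes that were called. SLC31A1, the plasma membrane copper importer, rose by 0.95, and the copper chaperones ATOX1 and CCS by 0.68 and 0.50 (adjusted p = 0.00944, 0.00809 and 0.0233). The median of the 10 was 0.20 against 0.01 over all genes. In eKD2, where 9.61% of all tested genes were called, ATOX1 alone of the 10 was called and fell by 0.38 (adjusted p = 0.0408). In eKD1 limma called 0 of the 10, with 3 at an unadjusted p under 0.05.

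Against normoxic control cells the same lists were called as follows, where 10.8% of all tested genes were called for eKD1 and 19.3% for eKD2. In eKD1, SLC31A1 and ATOX1 were each higher by 0.70, NDRG1 by 1.30, SELENOW by 0.67 and TXN by 0.37, and HIF1A was lower (-1.34). None of the exporters or importers was called by limma there, with 4 and 1 at an unadjusted p under 0.05. In eKD2, SLC31A1 was higher by 1.26, the copper pump ATP7B by 0.75, NFE2L2 by 0.64 and ATOX1 by 0.30. HIF1A (-0.85), SLC39A4 (-0.52), GCLC, an enzyme of glutathione synthesis (-0.46), and SLC39A7 (-0.40) were lower, and 0 exporters were called, with 3 at an unadjusted p under 0.05. Between eKD2 and eKD1 limma called 0 genes of these lists, where 0.403% of all tested genes were called. The numbers at an unadjusted p under 0.05 were 3 of 7 exporters, 3 of 11 importers and 3 of 6 MTF1 targets. They were 3 of the 6 regulators and 5 of 10 copper genes, again with no share over all tested genes beside them.

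Likeness to the members was ranked over the 8 libraries by Pearson's r of log2(FPKM + 1) among 1401 tested genes of sufficient level and spread, as a description in which libraries of a group share their treatment. The gene most like SLC30A1 was TBC1D4, a GTPase-activating protein of glucose transporter traffic (r = 0.978), followed by the non-coding SNHG17 (0.975) and KRCC1 (0.967). TBC1D4 was at 56.5 and 52.0 FPKM in control normoxia, 28.4 and 32.3 in control hypoxia, 43.8 and 43.2 in eKD1 and 72.1 and 78.1 in eKD2, the same order of groups as SLC30A1. For MT2A they were JUND, an AP-1 subunit (0.951), the non-coding HOXC-AS1 (0.947) and YPEL1 (0.938). JUND had 19.3 and 31.3 FPKM in normoxia and 46.9 to 64.6 in the 6 hypoxic libraries. For MTF1 the values were lower, with MSTO1 at 0.876, AL390195.1 at 0.872 and SNORA80B at 0.871. Among the members themselves r was -0.64 for MT2A with MTF1, 0.35 for MT1X with MT2A and between -0.42 and -0.03 for the other pairs.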

How the data were processed

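RNA of 8 SK-N-MC libraries was poly-A selected and sequenced as single-end reads by a kit that does not keep strand. The authors aligned the reads to GRCh37 with STAR and quantified genes by cufflinks and cuffnorm, which gave the FPKM values deposited. Which scaling cuffnorm used between libraries is not given in the sources used here. The study itself tested read counts, and as FPKM values are no counts, limma 3.58.1 (R 4.3.3) was used. The 9 members and all lists were chosen with earlier results of these data known.

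Groups and replicate numbers came from the sample titles, and columns were matched to samples by name. The 15372 genes that reached 1 FPKM in 2 or more libraries (33177 were listed at 0 everywhere) were fitted as log2(FPKM + 1) with a variance trend, each comparison of 2 against 2 libraries on its own. Tests were two-sided and adjusted over all genes tested by Benjamini-Hochberg, and called means an adjusted p below 0.05 in limma, the source of every adjusted p printed. With 2 against 2, the smallest two-sided exact permutation p for a single gene is 0.333, so none was used. P-values measure the spread between libraries, which the study describes as biological duplicates. The fit was tested on simulated data, and with so few libraries a gene that is not called is not thereby shown to be unchanged. Counts at an unadjusted p under 0.05 are given here without the share over all tested genes. Whether any of them exceeds that share was not tested, and no result is read from them.

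The absolute depth is unknown. Relative depth was taken from genes whose low values differ between libraries by the worth of 1 read, and values of a gene within 0.05 of whole multiples of 1 step were read as whole reads, which succeeded for MT2A and SLC30A1 and not for MT1X and MTF1. This step was added after the data were seen. Positions and transcripts came from GENCODE 44 lifted to GRCh37, which matched 59138 of 60332 genes, and promoters from the RefSeq table built on GRCh38.p14. The FPKM values rest on other gene models. Their spans were chr1:211744909-211752084 for SLC30A1, chr16:56642110-56643409 for MT2A and chr16:56716335-56721964 for MT1X. Transcript lengths given here may thus differ from those quantified. The MT2A span reaches into and beyond its printed promoter window, and the MT1X span reaches into its own. The SLC30A1 span stops short of the start next to its printed window.

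All members are named in every comparison. Of each list except the cell markers, up to 4 called genes with the largest change and at least 1 FPKM in the higher group are named. Called cell markers are named only for control hypoxia against normoxia and for eKD2 against control hypoxia. For MT2A, MTF1 and SLC30A1 the 3 non-members most alike are named (mean of at least 5 FPKM, SD of at least 0.5). The lists hold the metallothionein family, SLC30A1 to SLC30A10, SLC39A1 to SLC39A14, copper genes, other reported MTF1 targets, the regulators named above and cell markers. Where a symbol stood on 2 rows, the row with the higher mean was kept. The settings tried instead were no filter, a pseudocount of 0.1, a mean of at least 5 FPKM, median-of-ratios rescaling, equal totals, a shared fit, a replicate block, no variance trend, protein-coding genes only and omission of each library.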

Additional observations from a re-analysis of the deposited data

How the results depend on the processing

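The changes of the 4 tested members were recomputed under each alternative in which the member was tested. Of 294 such values 279 kept their sign, 264 of them with the same side of the threshold, 14 lost the call and 1 gained it. The number of members called in hypoxia, 1, became 0 with a pseudocount of 0.1, without a filter, with a mean of at least 5 FPKM (which leaves MTF1 alone to be tested) and with the replicate block, and 2 with no variance trend, which added SLC30A1 (adjusted p = 0.0431). In eKD2 the number, 1, became 0 without a filter, with a mean of at least 5 FPKM, with the replicate block and with no variance trend. Leaving out any 1 library gave 0 members called in both, but 0 of all 15372 genes were called in any such fit, so this does not bear on whether a call rests on 1 library. Over all alternatives MT2A in hypoxia had log2 changes of 0.98 to 1.73 and adjusted p of 0.0163 to 0.197 and was called in 5 of 12. SLC30A1 in eKD2 had 0.85 to 1.29 and 0.0148 to 0.206, also 5 of 12. The causes were not tested.

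All 15 sign changes were of values that were not called. With equal totals MT1X in eKD1 became 0.020 and MTF1 in eKD2 0.051. The other 13 came from leaving out 1 library, with these ranges over the omissions. MT1X ran from -0.74 to 1.21 in hypoxia (-0.74 without control normoxia replicate 1 and -0.30 without control hypoxia replicate 2), from -0.57 to 0.50 in eKD1 and from -0.44 to 0.63 in eKD2, where it was -0.16 without eKD2 replicate 1. Against normoxia MT1X ran from -0.78 to 1.18 in eKD1 and from -0.65 to 1.31 in eKD2, both lowest without control normoxia replicate 1. MTF1 ran from -0.048 to 0.30 in eKD1 and from -0.12 to 0.041 in eKD2. In eKD2 against eKD1, MT1X ran from -0.13 to 0.385, MT2A from -0.48 to 0.31 (0.14 without eKD1 replicate 1) and MTF1 from -0.34 to 0.010. Where an arm had 1 library, it was assumed to vary like the other group.

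The labels do not say whether same-numbered libraries were paired. Deviations of same-numbered libraries correlated at -0.0574 to 0.126 over all tested genes, most of which carry noise, so these values do not decide it. With the replicate block the adjusted p was 0.0502 for MT2A in hypoxia and 0.113 for SLC30A1 in eKD2, and the genes called fell from 4946 to 2570 in hypoxia and from 1477 to 0 in eKD2, so that no gene of any kind kept its call there. The metallothionein sum moved by less than the replicate spread under every rescaling and with all family genes, where control hypoxia rose from 8.81 to 11.01 FPKM. MT2A came to 2 to 14 reads a library if 1 step is 1 read. That step, 0.387 FPKM, lay below the 0.413 FPKM predicted for 1 read from 121 genes of like length.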
